A study of Homo sapiens with 2 samples.

Results

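The ANKRD11 gene held, on its own strand, 20 of the 6754 SRSF1 crosslink sites listed for H1299 cells, or 0.296% of the list. Its members are the listed sites on the minus strand of chromosome 16 (hg19) whose midpoint lies between positions 89334000 and 89557000, the limits taken for the gene, introns included, so a site may lie on the unspliced transcript or on the messenger RNA. Of the 20 sites, 16 were truncation sites and 4 were mutation sites. A stretch between 89347500 and 89350800 held 17 of them, and the rest of the gene held 3. The gene and the stretch were picked because many sites were listed there, so the number and the density of the sites are given as a description.

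The study consists of 1 group of 2 replicate HITS-CLIP libraries, both from H1299 cells, an established line from a human non-small cell lung cancer, with SRSF1 as the immunoprecipitated protein. The labels name no treatment, no altered allele and no control library, and do not say whether the replicates came from separate cultures. In this assay, living cells are exposed to ultraviolet light so that proteins become linked to the RNA they touch, 1 protein is recovered with its bound RNA fragments, and these fragments (tags) are sequenced. Both replicates are combined in 1 list with no column for either, so no value below has a spread between replicates and no difference was tested over samples.

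SRSF1 is an SR-family protein that binds purine-rich RNA, often with the bases GGA, and is best known for promoting the inclusion of exons during splicing. ANKRD11 encodes a large nuclear protein with ankyrin repeats that takes part in regulating transcription through chromatin, and its loss of function in people is known as the cause of KBG syndrome. Most of its coding sequence lies in a single long exon. When reverse transcriptase meets the peptide left on a crosslinked RNA, it can stop next to it, which gives a truncation site. It can also make a copying error there, which gives a mutation site. The type of error was not examined. A truncation site carries the number of tags that end there (observed) and how many would be expected at each position of the cluster of tags it lies in (expected). A mutation site carries the tags that cover it and those of them that are mutated.

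The long exon was examined in the GENCODE release 29 transcript ENST00000301030, in positions along the exon, because that annotation is for GRCh38 and the sites are in hg19. Whether the dense stretch lies in this exon was therefore not checked by position. By length, exon 9 of the 13 exons had 6578 nt, all of them coding, and made up 70.6% of the transcript of 9312 nt. The next longest exon had 1045 nt, so no other exon of this transcript is as long as the 3181 nt that the sites of the stretch span. Length alone does not place the stretch in the long exon, since the gene limits include introns.

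The long exon was rich in GGA. It held 224 GGA on the strand of the RNA (3.41 per 100 nt), against 2.67 per 100 nt in the other exons of the transcript. These other exons, 2734 nt together, were not restricted to coding sequence, so comparisons with them are not of coding sequence alone. Over 144 other coding exons of 3000 nt or more, from 136 genes, the median was 1.91 per 100 nt with a range of 0.304 to 5.28, and 5 of them (3.47%) reached the ANKRD11 value. All 144 held a GGA somewhere. GGAGA, which contains GGA, occurred 41 times (0.623 per 100 nt), against 8 times in the other exons of ANKRD11 (0.293 per 100 nt) and a median of 0.188 per 100 nt in the long exons of other genes, of which 3 (2.08%) reached it and 98.6% held a match. GAAGAA occurred 17 times (0.258 per 100 nt), against 0 times in the other exons and a median of 0.126 per 100 nt in the long exons of other genes, of which 21 (14.6%) reached it and 90.3% held a match. On the opposite strand the same long exon held 137 GGA, 11 GGAGA and 3 GAAGAA. Purines made up 57.8% of its bases, against 53.5% in the other exons and a median of 52.8% in the 144 long exons, of which 15 reached it. The window of 120 bases with the most GGA in the exon is shown to give a picture of its sequence. It lies on chromosome 16, minus strand, at bases 1913 to 2032 counted from the 5′ end of the exon, is read 5′ to 3′ from the GENCODE transcript, and has its 11 GGA in capitals, against a median of 4 GGA over all windows of that length. It was chosen by its letters alone and is not tied to any crosslink site.
ANKRD11 exon 9 window: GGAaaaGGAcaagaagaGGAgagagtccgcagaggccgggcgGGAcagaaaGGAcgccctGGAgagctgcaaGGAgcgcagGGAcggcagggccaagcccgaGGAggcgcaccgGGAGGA

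Sites were packed into a small share of the gene. The stretch made up 1.48% of the gene's length and held 85.0% of its sites (95% interval 62.1 to 96.8%, exact Clopper-Pearson, for counting error only). That is 5.15 sites per kb inside the stretch, against 0.0137 per kb in the remaining 220 kb, a ratio of 377. Most of those 220 kb lie outside exons, since the examined transcript has 9312 nt. The ratio is therefore no comparison with the rest of the messenger RNA, which was not made. The stretch was chosen for its density, so the share and the ratio only describe that choice. The interval does not allow for it, nor for sites of 1 gene being dependent. No listed site lay just outside its limits: the stretch ran from 89347555 to 89350735 by its outermost sites, and the next site 5′ of it was 12.1 kb away. On the 3′ side the next site on the strand was 496 kb away, beyond the gene. The opposite strand held 0 listed sites within the gene limits. ANKRD11 alone accounted for 16.1% of the 124 sites listed on the minus strand of chromosome 16.

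**Figure D1:**
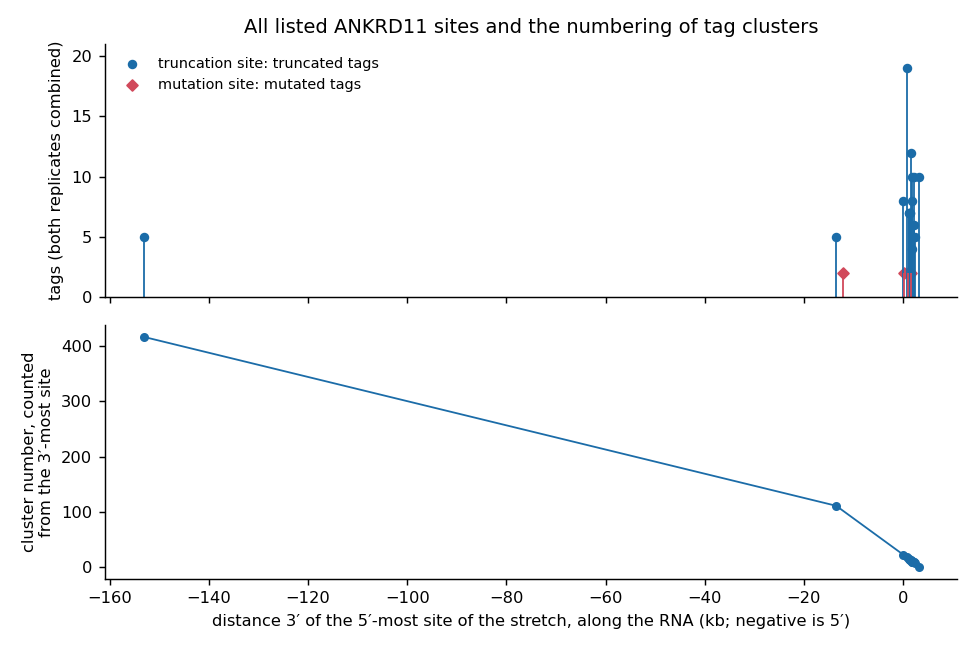
Tags at every listed ANKRD11 site (upper panel; truncated tags in blue, mutated tags in red) and the number of each truncation site's tag cluster (lower panel, counted from the 3′-most site) against the distance along the RNA in kb, with 0 at the 5′-most site of the stretch. The 17 sites of the stretch sit together at the right, 3 sites lie 5′ of it, and the cluster number climbs most steeply near the stretch.

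Within the stretch the spacing of the sites varied, which was described and not tested. Counted 3′ from its 5′-most site, the nucleotides from 500 to 2499 held 14 of the 17 sites and 102 of the 120 truncated tags (85.0%). This part takes up most of the 3181 nt that the sites span, so an even spread would also place most sites in it. Its limits leave out the windows with the fewest truncated tags. The windows of 500 nt held, 5′ to 3′, 8, 19, 28, 34, 21, 0 and 10 truncated tags. The window with the most tags, from 1500 to 1999 nt, held 4 truncation sites and 1 mutation site, and the window from 2500 to 2999 nt held no site. The 16 gaps between neighbouring sites had a median of 123 nt (quartiles 74.5 and 219, range 27 to 783 nt), and truncation sites alone a median of 157 nt apart (13 gaps).

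The highest truncation site of the gene lay in the 5′ part of the stretch. It had 19 truncated tags at 89349921 to 89349941, against 0.34 expected per position, a ratio of 55.9. Its P in the authors' deposited table stood at the lowest listed value, 1e-100, which 140 of the list's 4731 truncation sites share. Only 2.73% of the listed truncation sites had as many tags. The next highest, farther 3′, had 12 truncated tags at 89349145 to 89349165 against 0.25 expected (ratio 48.0), a number that 12.7% of listed sites reached.

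A count of 10 truncated tags was shared by 3 more sites of the stretch. They lay at 89348869 to 89348889 (0.37 expected, ratio 27.0), at 89348545 to 89348565 (0.21 expected, ratio 47.6) and, as the 3′-most site of the gene, at 89347555 to 89347575 (0.26 expected, ratio 38.5). At the other end, the 5′-most site of the stretch, at 89350715 to 89350735, had 8 truncated tags against 0.12 expected, and its ratio of 66.7 was the highest of the gene. In all, 5 of the 14 truncation sites of the stretch (35.7%) had 10 or more truncated tags, against 21.2% of those in the whole list. Of these 5, 3 had exactly 10, so the share depends on the level chosen. Only the sites with 19 and 12 tags lay above it, and 12.7% of the listed truncation sites had 12 or more. The difference was not tested. The lowest site, at 89348944 to 89348964, had 4 truncated tags against 0.09 expected, and 4 is the smallest number in the list. A further site with few tags, at 89348338 to 89348358, had 5 against 0.10 expected.

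**Figure D2:**
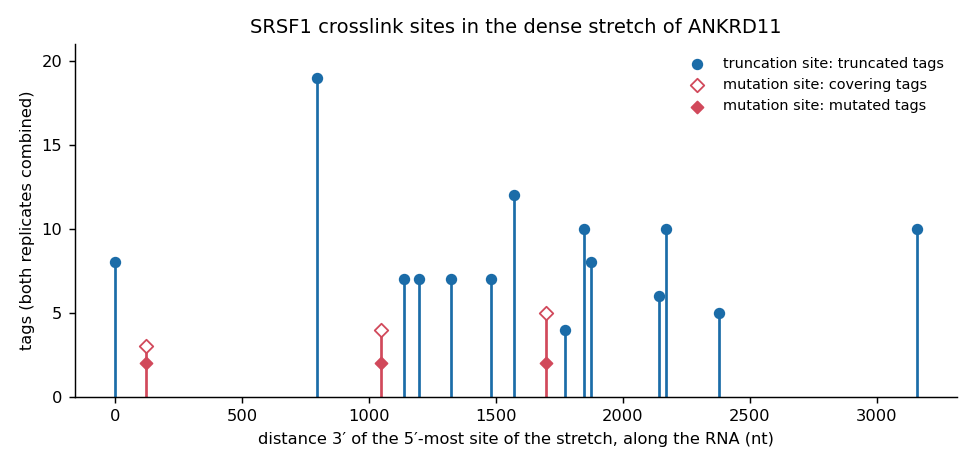
Tags at the 17 sites of the dense stretch against the distance 3′ of its 5′-most site along the RNA, in nt. Blue circles give truncated tags, open red diamonds the tags covering a mutation site and filled red diamonds its mutated tags. Truncation sites run from 4 to 19 tags, and the 3 mutation sites rest on 3 to 5 covering tags.

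Some truncation sites of the stretch shared a tag cluster. The 14 sites lay in 10 clusters, and 4 of these clusters (40.0%) held 2 sites each. In the rest of the list, 5.83% of the 4358 clusters with a truncation site held 2 or more. The stretch was chosen for sites that lie close together, which by itself raises this share, so nothing is read from the difference. Within the closest pair, the 5′ site had 10 truncated tags and the 3′ site, 27 nt away, had 8. A second pair was 28 nt apart, with 6 truncated tags at the 5′ site (89348573 to 89348593) and 10 at the 3′ site. The other pairs each had 7 truncated tags at both sites, 60 nt apart in a cluster with 0.25 expected per position (89349577 to 89349597 and 89349517 to 89349537) and 157 nt apart in a cluster with 0.14 expected (89349391 to 89349411 and 89349234 to 89349254). Over the whole list, the 361 gaps between truncation sites that share a cluster had a median of 53 nt and a minimum of 26 nt.

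The numbers in the cluster names allow a rough view of tags that gave no listed site. These numbers never decreased along a chromosome strand, and each number between those of 2 listed sites was read as 1 tag cluster, a reading that the labels do not state. The stretch ran from cluster 11315 to cluster 11338, which makes 24 numbered clusters in 3.16 kb, or 7.59 per kb, of which 10 (41.7%) held a truncation site. Over the whole list the share was 0.819% at most, but the stretch was chosen for its many listed sites, so its higher share is fixed by the choice. Between the stretch and the next truncation site 5′ of it, 13.5 kb away, 87 clusters were numbered, or 6.45 per kb. Over the next 140 kb in the 5′ direction, up to the 5′-most site of the gene, 304 clusters were numbered, or 2.18 per kb. Both spans run between neighbouring truncation sites, so they hold none by construction. Their counts leave out the clusters at both ends, whereas the 24 of the stretch include them. This raises the number per kb of the stretch relative to the other spans. The size of these clusters is not in the list.

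Outside the stretch, the 3 sites of the gene were all 5′ of it and low in tags. A mutation site at 89362781 to 89362801 had 2 mutated of 6 covering tags. A truncation site at 89364195 to 89364215, 1414 nt farther 5′, had 5 truncated tags against 0.13 expected (ratio 38.5). The 5′-most site of the gene, at 89503866 to 89503886, had 5 truncated tags against 0.08 expected, a ratio of 62.5 that 4.19% of listed truncation sites reached. Truncation sites inside the stretch had a median of 7.5 truncated tags (range 4 to 19), against 5 at both sites outside it, and the ranges overlap. With 2 truncation sites outside the stretch, the numbers set a limit to any comparison.

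Mutation sites of ANKRD11 had a median of 4.5 covering tags (range 3 to 6), against 5 in the rest of the list (range 2 to 503). Each of the 4 had 2 mutated tags, the smallest number in the list, as did 68.4% of the mutation sites in the rest of the list. Along the stretch from 5′ to 3′, the site at 89350595 to 89350615 had 2 of 3 covering tags mutated, or 66.7% (exact 95% interval 9.43 to 99.2%). The site at 89349668 to 89349688 had 2 of 4, or 50% (6.76 to 93.2%). The site at 89349017 to 89349037 had 2 of 5, or 40.0% (5.27 to 85.3%). The share outside the stretch was 33.3% (4.33 to 77.7%). With 2 mutated tags at every one of these sites, the shares differ only through the covering tags. No site with fewer mutated tags is listed, and the intervals do not allow for that selection. The shares were therefore not compared. The mutation sites of the stretch lay 120, 91 and 73 nt from the nearest truncation site, in the same order. Of the 4 sites, 0 lay within 50 nt of a truncation site, against 332 of the 2019 other mutation sites in the list (16.4%). With so few members this count was not tested.

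Truncation sites made up 80.0% of the ANKRD11 sites (56.3 to 94.3%), against 70.0% in the rest of the list (68.9 to 71.1%). These intervals cover counting error only and are no test, since sites of 1 gene are not independent.

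The tags of ANKRD11 truncation sites lay within the range of the list. Their median was 7 truncated tags (quartiles 5.75 and 10), against 6 (quartiles 5 and 9) in the rest of the list, and the quartile ranges overlap. Of the 16 sites, 11 (68.8%) lay above the list's median of 6 tags, all of them in the stretch, against 47.8% in the rest of the list. The number expected per position was a median of 0.21 in ANKRD11 and 0.19 in the rest. The ratio of observed to expected tags was a median of 46.0 in ANKRD11 (range 21.6 to 66.7), against 35.3 in the rest of the list (range 5.31 to 100). Sites of 1 gene share their RNA and are not replicates, so these differences carry no test. The expected number is listed to 0.01, which bounds the ANKRD11 median between 44.3 and 47.9.

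**Figure D3:**
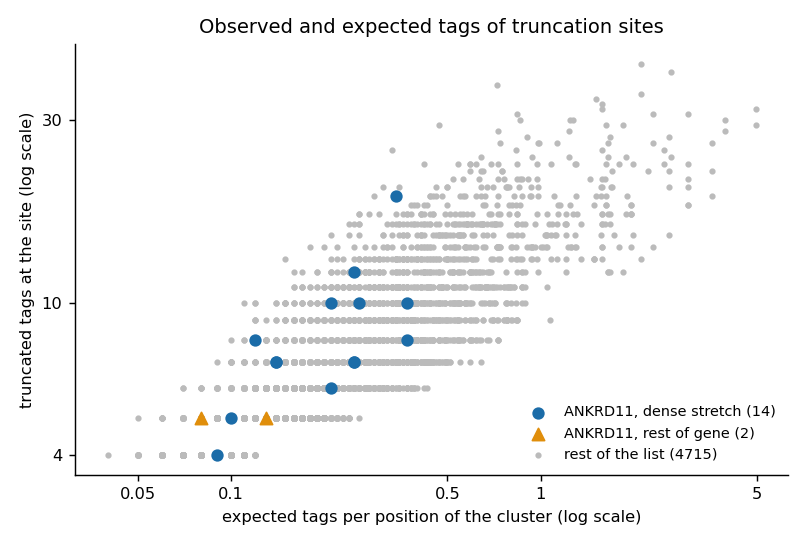
Truncated tags against the tags expected per position for ANKRD11 truncation sites in the stretch (blue) and in the rest of the gene (orange triangles), and for the 4715 other truncation sites of the list (grey), both axes on a log scale. The ANKRD11 sites lie inside the cloud of the list, some at the same point, with the site of 19 tags and 0.34 expected near its upper left edge.

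Among the dense loci of the list, the ANKRD11 stretch ranked high by its number of sites and not by its density. When same-strand neighbours up to 1000 nt apart were joined, the stretch formed 1 locus of 17 sites, the 7th by number of sites among 5199 loci, of which 19 held 10 or more sites. Its 5.34 sites per kb put it 13th of those 19, whose median was 6.26 and whose range was 3.40 to 39.1. Its truncation sites had a median of 7.5 truncated tags, where these medians had a middle value of 11 over the 19 loci (range 6 to 23). Its deepest mutation site had 5 covering tags, the lowest such value among the 17 of these loci with a mutation site, where the median was 26 and the highest 369.

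The 3 loci of at least 10 sites nearest to it in length are given by position, since no hg19 gene annotation was used. The ANKRD11 locus had 37.7 truncated tags per kb and a median ratio of observed to expected tags of 46.0. On chromosome 16 plus strand, from 33962596 to 33965862, 27 sites carried 101 truncated tags per kb with a median ratio of 19.7, and a mutation site there was covered by 228 tags. On chromosome 19 minus strand, from 24182416 to 24185500, 11 sites, all of them truncation sites, carried 35.3 truncated tags per kb with a median ratio of 25.6. On chromosome 16 plus strand, from 89652129 to 89655066, 10 sites carried 17.4 truncated tags per kb with a median ratio of 31.5. The ANKRD11 median ratio was above those of all 3, and its range of 21.6 to 66.7 overlapped each of theirs, the highest of which ended at 46.2. Its number expected per position, a median of 0.23, was close to the 0.215 of the last locus and below the 0.52 and 0.43 of the first and second. The smallest listed count is 4 truncated tags, so a low expected number comes with a high ratio by selection, and the loci were not matched for it.

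**Figure D4:**
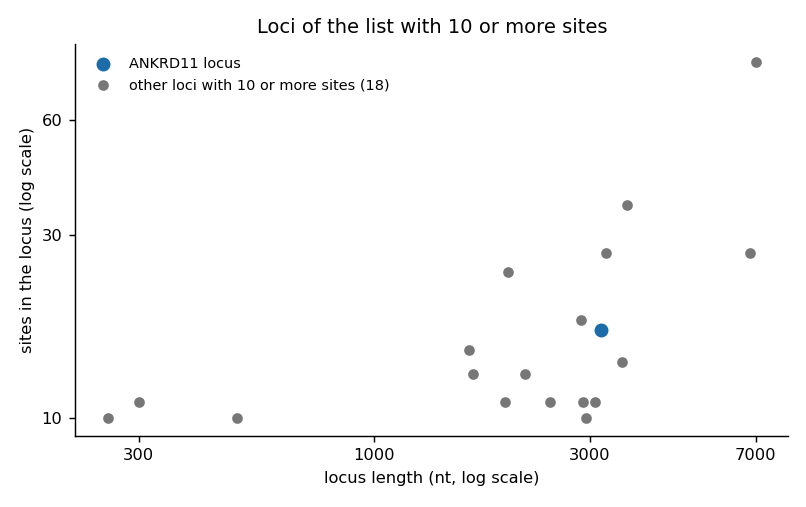
Number of sites against length in nt for the 19 loci of the list with 10 or more sites, both axes on a log scale, with the ANKRD11 locus in blue. It lies among loci of about 3000 nt, with 17 sites, below the locus of 85 sites and beside others of its length that hold 10 to 36.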

How the data were processed

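Both replicate libraries are combined in 1 deposited list. The submitters' processing notes name cutadapt, BWA 0.7 and the build hg19. Their settings, the removal of duplicates, the treatment of reads with several places and the step that joined the replicates were not given in the sources used here. Each site has 1 tag count deposited by the authors, which equalled the truncated or mutated tags in the row's name in every row; names follow the CTK toolkit, and their reading is not stated in the labels. The total tags per library are unknown here, so precision is given only as exact Clopper-Pearson 95% intervals, for counting error alone.

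Positions are 1-based, and distances run between interval midpoints. Loci join same-strand neighbours up to 1000 nt apart. With 20 sites in the gene, each was named; the 3 loci set beside it have at least 10 sites and the nearest length. The members, the limits and this rule were chosen with earlier results of these data known. The joining of sites was tested on simulated data. Motifs were counted in GENCODE release 29 transcripts, which are GRCh38, without carrying positions between builds. Python 3.11.15, pandas 2.3.3, scipy 1.17.1 and matplotlib 3.10.9 were used.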

Additional observations from a re-analysis of the deposited data

How the results depend on the processing

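No paired analysis was possible because the list combines both replicates of the only group, and for the same reason no replicate could be left out. Over 22 alternatives, of which 17 were planned and 5 were chosen after seeing the data, 19 stayed within the bounds set for them and 3 did not. Keeping sites above the median tag count of their kind left 11 of the 20 sites, and truncation sites then made up 100% in place of 80.0%, since each ANKRD11 mutation site has the smallest listed number of mutated tags. Ranking loci by summed truncated tags put ANKRD11 12th in place of 7th; its other ranks ran from 6 to 9. The share of sites in the stretch ran from 70.0 to 85.0%, the lower value with its limits narrowed by 500 nt or loci joined at gaps up to 500 nt. This range was counted as within its bounds. Another alternative kept truncation sites by the authors' P, at most 1e-04, and mutation sites by 10 covering tags. It left 15 sites and was counted as within its bounds, although no mutation site remained. The share of truncation sites was not scored under this alternative, so the count of 3 does not cover it. Depth limits the mutation sites, which rest on 3 to 6 covering tags.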
